A study of Mus musculus with 32 samples.

Results

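Slc3a2, Slc7a5, Slc7a6, Slc7a7, Slc7a8, Slc1a5, Slc38a2 and Slc15a3 are 8 genes for carriers of amino acids or peptides, followed here in sorted mouse microglia after a stab wound to the cortex. They were chosen by symbol and make up 8 of the 55385 genes counted in the series. Averaged over 4 days after the wound, 3 of the 8 transcripts rose at the wound and none fell: Slc1a5 by 5.49-fold, Slc15a3 by 2.35-fold and Slc3a2 by 1.66-fold. In the same test, 7.76% of all 28597 genes tested rose and 7.96% fell. The rises of Slc1a5 and Slc15a3 held in every alternative that was run, while that of Slc3a2 was lost in 3 of 17. Slc7a5, Slc7a6, Slc7a7, Slc7a8 and Slc38a2 did not pass the test.

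All libraries came from adult C57BL/6 mice of both sexes, injected with tamoxifen at 8 to 10 weeks of age on 5 days in a row before the wound. The mice were heterozygous for Cx3cr1CreER, an allele in which the promoter of the fractalkine receptor gene drives a recombinase that tamoxifen activates, and EYFP-positive cells were sorted as microglia. Wound and control cells share this allele and this treatment. The promoter of Cx3cr1 is also active in other macrophages of the brain and in blood monocytes, so EYFP does not mark microglia exclusively. Cells were taken at the wound, or at the matching place of the hemisphere that was not injured, 1, 4, 7 and 14 days later. Polyadenylated RNA was sequenced, and each of the 16 combinations of day, sex and side was deposited as 2 columns, 32 in all.

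The series text calls the 2 columns of a combination biological replicates, but they differed by little more than counting noise. The median chi-square per gene between them was 0.475 to 0.639 over the 16 combinations, and counting noise alone gives 0.455. The columns were therefore summed into 16 libraries of 20864031 to 55378880 counts, which form 8 pairs of a wound and a non-injured library of the same day and sex. The labels name no animals, so p-values measure the spread between these samples. Summed CPM (counts scaled to the library total) of 10 microglial markers was 10070 to 39730 at the wound and 10320 to 69560 on the non-injured side, with less at the wound in 7 of 8 pairs. Summed CPM of 10 monocyte markers was 198 to 2492 at the wound against 26.1 to 323, higher at the wound in 8 of 8 pairs. In such bulk samples, fewer cells of a type and less RNA per cell cannot be told apart.

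Amino acids cross the plasma membrane through carriers of several families. Slc3a2 encodes the heavy chain CD98hc, a glycoprotein with a single membrane span that does not carry amino acids itself. It brings a light chain of the Slc7 family to the cell surface through a disulfide bond, and it also binds integrins. The light chain sets what is moved: Slc7a5 (LAT1) and Slc7a8 (LAT2) exchange large neutral amino acids such as leucine, while Slc7a6 and Slc7a7 (the y+L carriers) exchange cationic for neutral amino acids. Slc1a5 (ASCT2) exchanges glutamine and other small neutral amino acids with sodium, Slc38a2 (SNAT2) takes up small neutral amino acids with sodium, and Slc15a3 is a proton-coupled carrier of histidine and small peptides in endosomes and lysosomes. Leucine and glutamine taken up this way feed the sensing of amino acids by the kinase complex mTORC1, and several of these genes are known targets of ATF4, the transcription factor of the amino acid starvation response.

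RefSeq promoter windows, 250 bases before to 50 after a start site in build GRCm38.p6, were found for Slc3a2, Slc7a6, Slc7a7, Slc7a8 and Slc38a2. The motifs searched on both strands were TGATGNAA, the core of the amino acid response element that ATF4 binds, CACGTG, the E-box, and GAAANNGAA, part of the interferon response element. TGATGNAA lay in 3.97% of 32851 promoter windows, CACGTG in 7.15% and GAAANNGAA in 8.56%. Since a gene can have several windows, the shares of 27025 genes with a match in any window were 4.51%, 8.09% and 9.76%. Among the 5 genes, TGATGNAA was found in Slc7a7 and GAAANNGAA in Slc7a8, and CACGTG in none. The windows of those 2 light chains are shown for their matches, in capitals, and that of their heavy chain Slc3a2 for comparison, each 5′ to 3′ on the gene's strand. They are chr19:8713848-8714147 (minus strand) for Slc3a2, chr14:54417895-54418194 (minus strand) for Slc7a7 and chr14:54781837-54782136 (minus strand) for Slc7a8.
Slc3a2: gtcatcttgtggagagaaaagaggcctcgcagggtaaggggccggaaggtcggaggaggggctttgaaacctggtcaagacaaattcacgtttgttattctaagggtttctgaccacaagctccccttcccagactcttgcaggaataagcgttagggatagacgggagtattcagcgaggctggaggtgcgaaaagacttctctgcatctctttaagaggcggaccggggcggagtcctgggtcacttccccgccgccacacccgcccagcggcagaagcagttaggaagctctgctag
Slc7a7: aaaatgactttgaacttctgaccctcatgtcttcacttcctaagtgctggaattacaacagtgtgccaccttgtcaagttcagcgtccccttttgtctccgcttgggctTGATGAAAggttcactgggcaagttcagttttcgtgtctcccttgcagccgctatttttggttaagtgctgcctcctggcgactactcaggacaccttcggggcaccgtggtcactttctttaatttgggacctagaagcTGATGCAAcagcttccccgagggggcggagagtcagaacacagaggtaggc
Slc7a8: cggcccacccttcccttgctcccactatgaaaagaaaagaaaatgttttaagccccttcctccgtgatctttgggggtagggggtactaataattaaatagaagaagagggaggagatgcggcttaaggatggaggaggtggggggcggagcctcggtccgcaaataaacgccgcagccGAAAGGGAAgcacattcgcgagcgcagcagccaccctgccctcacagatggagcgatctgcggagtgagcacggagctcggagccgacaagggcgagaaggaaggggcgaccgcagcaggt
Slc7a7 has 5 windows, and the one shown is that with the most matches, 2, TGATGAAA and TGATGCAA. Another, which overlaps it, holds TGATGCAA, and the other 3 hold none. The single Slc7a8 window holds 1 match, GAAAGGGAA. The Slc3a2 window has no match and lies inside the Slc3a2 gene as GENCODE M21 draws it (chromosome 19, 8706882 to 8723369). A match of letters is a description of the window and not a site of binding.

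All 8 genes passed the filter on low counts that left 28597 genes to test. edgeR's quasi-likelihood test compared the wound with the non-injured side at each day and over the mean of the 4 day effects, and calls needed a p under 0.05 after Benjamini-Hochberg adjustment. At the single days, each with 2 pairs, none of the 8 genes was called in either direction. Few genes of any kind were called there: 0.472% rose and 0.58% fell at day 1, 1.52% and 0.521% at day 4, 0.318% and 0.0559% at day 7, and 0.0455% and 0.014% at day 14. Before adjustment, Slc3a2, Slc1a5 and Slc15a3 had a p under 0.05 at days 1, 4 and 7, where 15.4%, 14.8% and 19.1% of all genes did. At day 14 it was Slc1a5 and Slc7a8, against 16.5% of all genes. DESeq2 called 2 of the 8 as higher at day 1, 2 at day 4 and 1 at day 14, where it called 3.95%, 3.55% and 3.64% of all genes as higher.

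Over the mean of the 4 days, 3 of 8 genes rose and 0 fell, where 7.76% of all genes tested rose and 7.96% fell. The median log2 change of the 8 was 0.22, and that of all 28597 genes was -0.32. Of all called genes 49.4% rose in the main fit. With median-ratio factors, which change the scaling alone, this share was 40.7%, and the median of all genes moved to -0.44, a shift by over 0.1. With limma on TPM (length-scaled transcript) values, where scale, filter and test all differ, it was 25.0%.

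**Figure D1:**
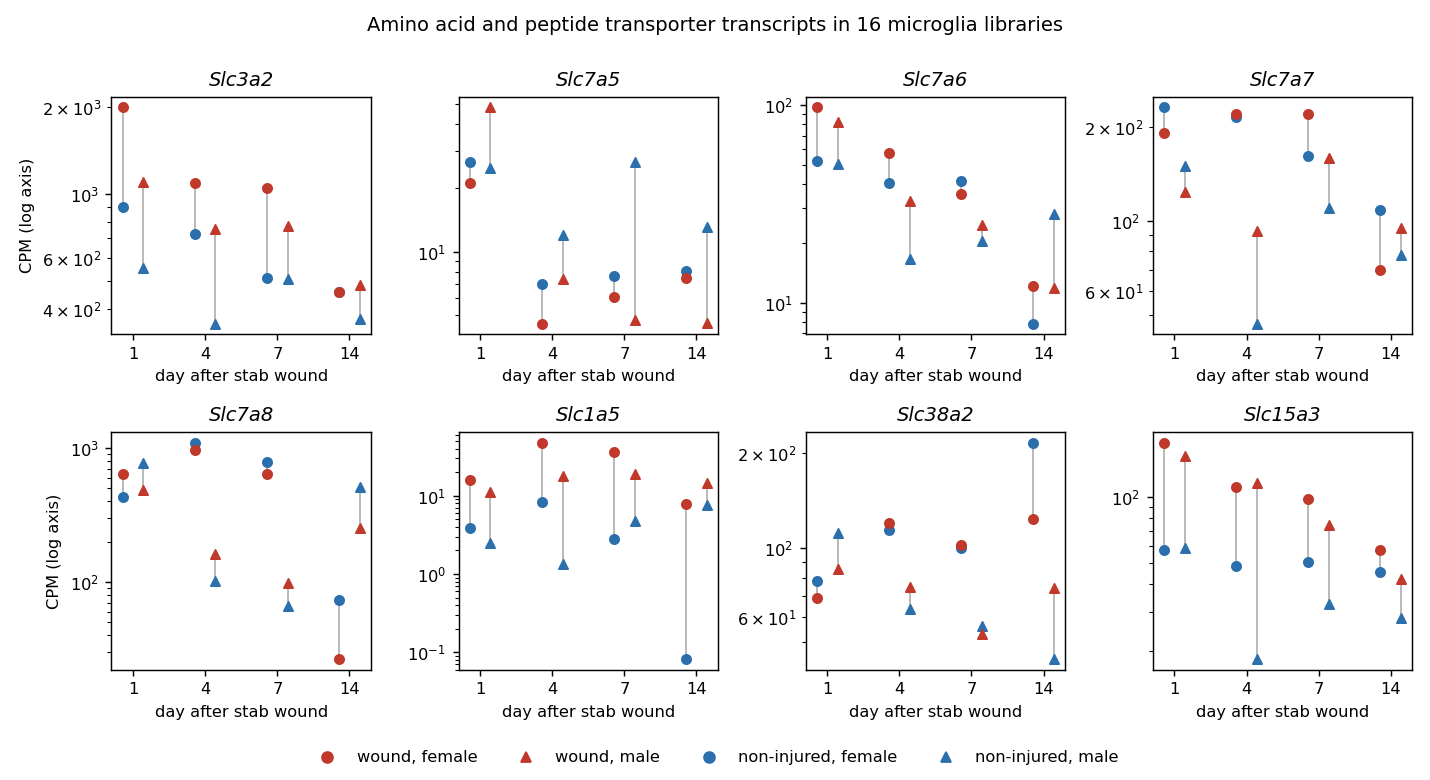
CPM of each gene (log axis) against the day after the wound in all 16 libraries. Red marks the wound and blue the non-injured side, circles are females and triangles males, and a grey line joins the 2 libraries of a pair. Red lies above blue in 8 of 8 pairs for Slc1a5 and Slc15a3, in 7 of 8 for Slc3a2 and in 1 of 8 for Slc7a5.

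Levels of different genes were compared in TPM, which is per transcript length. Slc3a2 had the highest TPM of the 8 genes in 16 of 16 libraries, 668 ± 367 (SD, n = 16). Slc7a8 came next with 171 ± 155, then Slc7a7 with 106 ± 57.9, Slc15a3 with 44.7 ± 33.3, Slc7a6 with 32.9 ± 31.7, Slc38a2 with 27.5 ± 13.5, Slc7a5 with 6.95 ± 7.72 and Slc1a5 with 6.54 ± 4.97. Between neighbours in this order, 2 steps held in 16 of 16 libraries: Slc3a2 above Slc7a8, and Slc38a2 above Slc7a5. Slc7a6 lay below Slc7a5 in the non-injured day 14 female library (2.05 against 3.30 TPM). It also did so in the non-injured day 7 male library (10.4 against 12.1 TPM). The other neighbours did not separate beyond their spread. Slc7a8 was above Slc7a7 in 10 of 16 libraries, Slc7a7 above Slc15a3 in 14, Slc15a3 above Slc7a6 in 12 and Slc7a6 above Slc38a2 in 9. The order of the last 2 differed by side, since Slc7a5 was above Slc1a5 in 7 of 8 non-injured libraries and in 1 of 8 wound libraries.

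Slc3a2, the heavy chain, had 455 to 1991 CPM at the wound (median 913) and 355 to 900.1 on the non-injured side (median 509). In females its CPM at the wound against the other side was 1991 against 900.1 at day 1, 1088 against 727 at day 4, 1051 against 511 at day 7 and 455 against 457 at day 14. In males it was 1094 against 551, 753 against 355, 776 against 508 and 482 against 368. The wound library was the higher of the pair in 7 of 8 pairs, and the sides overlapped, with 4 wound libraries above every non-injured one. The fitted log2 change was 1.07 ± 0.29 (SE) at day 1, 0.83 ± 0.29 at day 4, 0.83 ± 0.29 at day 7 and 0.19 ± 0.29 at day 14. Over the mean of the days Slc3a2 rose by a log2 of 0.73 ± 0.14 (SE; 95% interval 0.40 to 1.06, adjusted p = 0.00944 by edgeR).

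The rise of Slc3a2 was the least firm of the 3. On the TPM scale the gene was higher at the wound in 4 of 8 pairs, the median TPM was 601 at the wound and 641 on the other side, and limma on log2(TPM + 1) gave 0.20 (adjusted p = 0.45). The call was also lost without the day 1 female pair (log2 0.71, adjusted p = 0.0629) and without the day-by-sex pairs in the model (0.72, adjusted p = 0.272). It held in the other 14 of 17 alternatives, and the sign was positive in 17 of 17.

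Slc7a5, the LAT1 light chain that carries leucine, had the lowest mean TPM of the 4 light chains. At the wound its CPM was 21.2 in females and 48.2 in males at day 1, 4.56 and 7.41 at day 4, 6.06 and 4.74 at day 7, and 7.46 and 4.59 at day 14. On the non-injured side the same pairs had 26.7 and 24.9, 7.05 and 12.02, 7.67 and 26.7, and 8.09 and 13 CPM. The wound library was lower in 7 of 8 pairs, and the exception was the day 1 male pair. The log2 change was 0.32 ± 0.59 (SE) at day 1, -0.66 ± 0.64 at day 4, -1.44 ± 0.66 at day 7 and -0.82 ± 0.66 at day 14. Its mean over days was -0.65 ± 0.32 (95% interval -1.37 to 0.07, adjusted p = 0.22), so Slc7a5 was not called. The mean at the wound was 13.02 CPM with the day 1 male library and 8.001 without it, against 15.8 on the non-injured side.

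Slc7a5 is known to be abundant in the endothelium of brain vessels, and 12 endothelial markers were summed beside it. Their sum was 51.8 to 290 CPM at the wound (median 161) and 153 to 1215 on the non-injured side (median 393), less at the wound in 7 of 8 pairs, and none of the 12 was at 0 in all libraries. The non-injured day 7 male library had the highest endothelial sum, 1215 CPM, and 26.7 CPM of Slc7a5. The non-injured day 1 female library had the next highest, 846 CPM, with Slc7a5 also at 26.7. The highest Slc7a5 level of all, 48.2 CPM in the day 1 male wound library, stood beside the lowest endothelial sum, 51.8 CPM. The part of endothelial RNA in the Slc7a5 values was not tested.

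**Figure D2:**
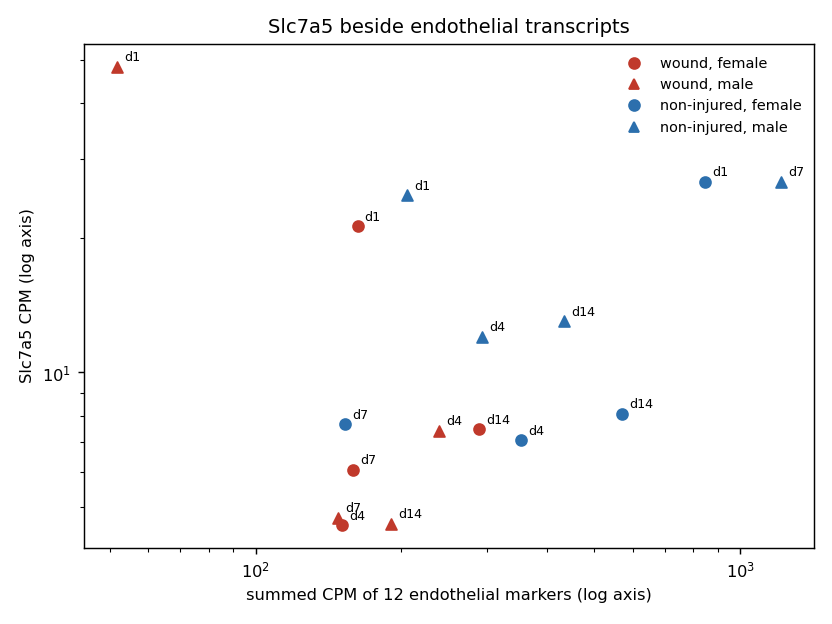
Slc7a5 CPM against the summed CPM of 12 endothelial markers in the 16 libraries, both on log axes, with the day beside each point. Red is the wound, blue the non-injured side, circles are females and triangles males. The day 1 male wound library is the point at the top left, with 48.2 CPM of Slc7a5 and an endothelial sum of 51.8 CPM.

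Slc7a6 is the y+L light chain with wide expression. Its CPM at the wound was 97.2 in females and 82.1 in males at day 1, 56.9 and 32.8 at day 4, 35.5 and 24.8 at day 7, and 12.2 and 11.9 at day 14. The non-injured libraries had 52.3 and 50.1, 40.2 and 16.6, 41.4 and 20.4, and 7.85 and 28.0 CPM. The wound library was higher in 6 of 8 pairs, among them all 4 of days 1 and 4. The log2 change was 0.80 ± 0.46 (SE) at day 1, 0.73 ± 0.47 at day 4, 0.02 ± 0.47 at day 7 and -0.36 ± 0.52 at day 14. The mean over days was 0.30 ± 0.24 (95% interval -0.24 to 0.84, adjusted p = 0.482).

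Slc7a7, the y+L light chain of macrophages and epithelia whose loss causes lysinuric protein intolerance, had a median of 142 CPM at the wound (70.0 to 220) and 130 on the other side (47.1 to 231). The wound library was the higher one in 5 of 8 pairs, and the sides overlapped over almost their whole range. The mean log2 change was 0.14 ± 0.19 (SE; 95% interval -0.28 to 0.56, adjusted p = 0.742). The day values ran from -0.27 at day 1 to 0.50 at day 4. On the TPM scale Slc7a7 was higher at the wound in 2 of 8 pairs.

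Slc7a8, the LAT2 light chain, varied widely between pairs on both sides. Its CPM ran from 26.7 to 954 at the wound and from 66.0 to 1087 on the non-injured side, a 35.7-fold and a 16.5-fold range. The 3 lowest pairs were the same on both sides: day 4 males with 161 at the wound and 103 opposite, day 7 males with 97.7 and 66.0, and day 14 females with 26.7 and 72.9. In the other 5 pairs Slc7a8 lay between 252 and 954 CPM at the wound and between 433 and 1087 on the other side. The SD of its log2 CPM was 1.73 over the wound libraries and 1.67 over the non-injured ones, against 0.79 for the log2 ratio within pairs. The mean change over days was -0.23 ± 0.20 (SE; 95% interval -0.68 to 0.22, adjusted p = 0.5262). At day 14 it was lower at the wound in both pairs, with a log2 change of -1.22 ± 0.41 that did not pass (adjusted p = 0.222).

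**Figure D3:**
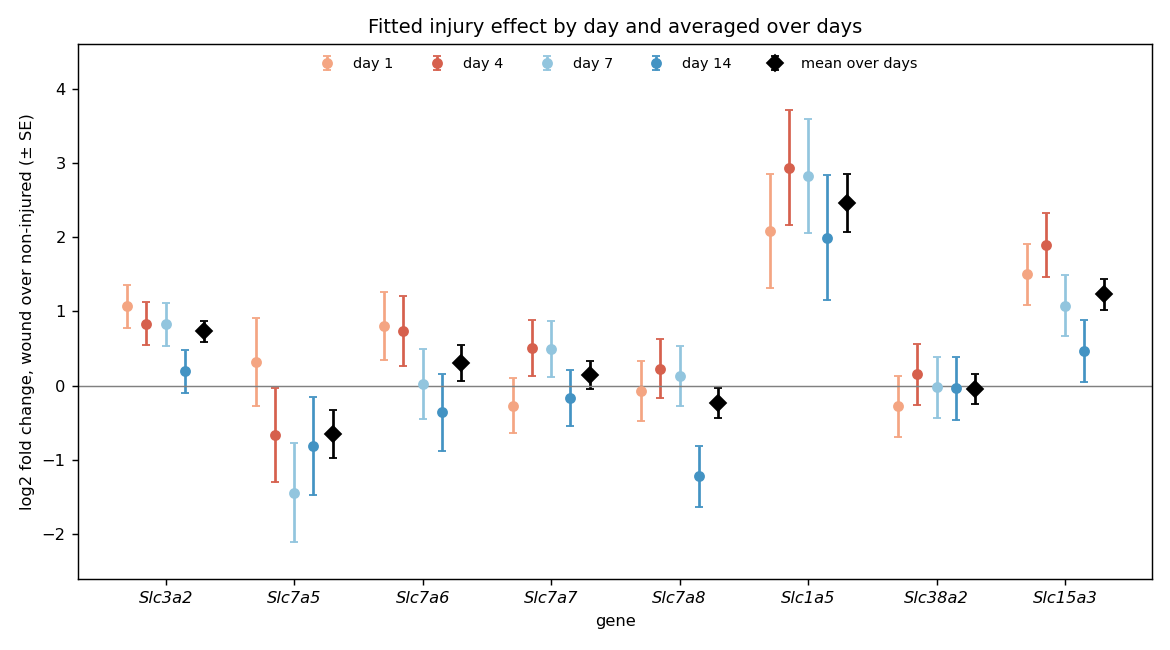
Fitted log2 fold change, wound over non-injured, of each gene at day 1, 4, 7 and 14 (circles, from lighter red to blue) and for the mean over days (black diamonds), with SE bars. The mean is called for Slc3a2 (0.73), Slc1a5 (2.46) and Slc15a3 (1.23), and no single day is called for any gene.

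The balance of heavy and light chain transcripts can be read within a library, where a change of scale cancels. Slc3a2 TPM divided by the summed TPM of Slc7a5, Slc7a6, Slc7a7 and Slc7a8 was 1.85 to 5.96 at the wound (median 3.33) and 1.15 to 4.02 on the non-injured side (median 1.78). In females the ratio at the wound against the other side was 3.85 against 2.25 at day 1, 1.85 against 1.19 at day 4, 2.32 against 1.15 at day 7 and 5.96 against 4.02 at day 14. In males it was 2.80 against 1.21, 4.49 against 3.71, 3.96 against 3.76, and 2.50 against 1.30. The ratio was higher at the wound in 8 of 8 pairs. It was computed after the values had been seen and carries no test. With the Slc3a2 partners Slc7a10 and Slc7a11 added to the light chains, the median was 3.02 against 1.51, again higher in 8 of 8 pairs. The summed TPM of these 6 light chains was lower in all 8 wound libraries than in their partners, with a median of 256 against 399. Unlike the ratio, this sum depends on the scale. In CPM, Slc7a6 was higher at the wound in 6 of 8 pairs, Slc7a7 in 5, Slc7a8 in 3 and Slc7a5 in 1.

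In TPM, the make-up of the light chain pool also differed between sides. Slc7a6 made up 7.16% to 21.01% of the summed light chain TPM at the wound (median 11.1%) and 2.27% to 10.7% on the other side (median 6.13%), a higher share in 8 of 8 pairs. TPM and counts did not always order this gene alike. In day 14 males Slc7a6 had 340 counts (11.9 CPM) at the wound and 933 (28.0 CPM) opposite, but 20.2 and 19.4 TPM. Its CPM was lower at the wound in day 7 females too, 35.5 against 41.4. Shares by counts were not computed. Slc7a11, the cystine carrier xCT, had a median share of 4.27% against 0.477%, also higher in 8 of 8 pairs. The share of Slc7a10, a carrier of small neutral amino acids known from neurons and astrocytes, was lower in 8 of 8 pairs, and it reached 49.9% in the non-injured day 4 male library. That library also had the highest summed CPM of 10 neuronal markers, 8977, where the non-injured median was 498. Slc7a7 and Slc7a8 made up most of the pool in the other 15 libraries, and their shares were higher at the wound in 6 of 8 and 3 of 8 pairs. Slc7a5 made up 0.377% to 5.26% at the wound and 0.505% to 8.07% on the other side.

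**Figure D4:**
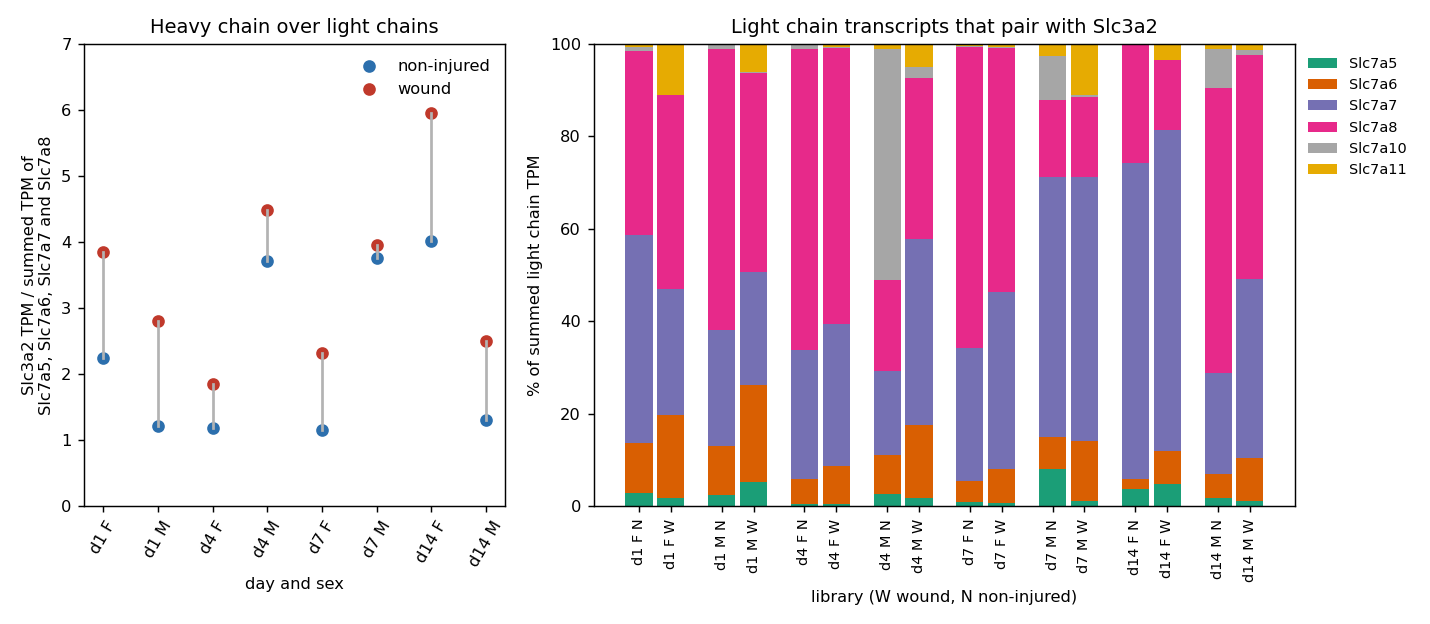
Left, Slc3a2 TPM over the summed TPM of Slc7a5, Slc7a6, Slc7a7 and Slc7a8 for each day and sex (d, day; F, female; M, male), red at the wound and blue on the non-injured side. Right, the share of each light chain in the summed TPM of 6 light chains per library (W, wound; N, non-injured), from 0 to 100%. In 8 of 8 pairs the ratio is higher at the wound, and the Slc7a10 share of 49.9% stands out in the non-injured day 4 male library.

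Slc1a5, the glutamine exchanger ASCT2, had the largest fold change of the 8 genes, and the lowest mean TPM on the non-injured side (3.34) though not at the wound (9.74, against 6.01 for Slc7a5). At the wound its CPM was 15.8 in females and 11.1 in males at day 1, 47.5 and 17.9 at day 4, 36.8 and 18.8 at day 7, and 7.77 and 14.7 at day 14. The non-injured libraries had 3.93 and 2.48, 8.40 and 1.36, 2.77 and 4.71, and 0.0822 and 7.71 CPM. The wound library was higher in 8 of 8 pairs, and 7 of the 8 wound libraries lay above every non-injured one. The non-injured day 14 female value rests on 2 counts, against 198 at the wound, a ratio of 94.6 with a counting interval of 25.8 to 787. That interval covers counting noise alone. The libraries of this pair had the fewest genes with any count, 14737 at the wound and 14777 opposite, where the highest library had 40975. In the other 7 pairs the ratio was 1.91 to 13.3, from at least 35 counts on the lower side.

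The log2 change of Slc1a5 was 2.08 ± 0.77 (SE) at day 1, 2.94 ± 0.77 at day 4, 2.82 ± 0.77 at day 7 and 1.99 ± 0.84 at day 14. Averaged over days Slc1a5 rose by a log2 of 2.46 ± 0.39 (SE; 95% interval 1.57 to 3.34, adjusted p = 0.00353 by edgeR). The call held in 17 of 17 alternatives, with values from 1.36 to 3.60 and adjusted p from 4.55e-10 to 0.0487. The value of 3.60 came without the day 14 male pair, which leaves the pair with 2 counts to stand for day 14.

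Slc38a2, the sodium-coupled carrier SNAT2, was not called. Its median was 80.4 CPM at the wound (53.3 to 123) and 89.1 on the non-injured side (44.3 to 215), and it was higher at the wound in 4 of 8 pairs. The mean log2 change was -0.05 ± 0.21 (SE; 95% interval -0.51 to 0.42, adjusted p = 1). The day values lay between -0.28 at day 1 and 0.15 at day 4. The non-injured day 14 female library stood apart with 215 CPM, and without it the non-injured mean was 81.1 CPM in place of 97.8.

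Slc15a3, the carrier of histidine and peptides in endosomes and lysosomes, had 42.3 to 175 CPM at the wound (median 104) and 18.4 to 58.6 on the other side (median 47.0). In females the wound against the other side was 175 against 57.2 at day 1, 111 against 48.6 at day 4, 97.3 against 50.4 at day 7 and 57.3 against 45.4 at day 14. In males it was 153 against 58.6, 115 against 18.4, 74.7 against 32.5 and 42.3 against 28.1. The wound library was higher in 8 of 8 pairs, and 6 of the 8 wound libraries, all those of days 1, 4 and 7, lay above every non-injured one. The log2 change was 1.499 ± 0.42 (SE) at day 1, 1.89 ± 0.43 at day 4, 1.08 ± 0.41 at day 7 and 0.46 ± 0.42 at day 14. The day 4 value had the smallest adjusted p of any member at a single day, 0.0644.

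Over the mean of the days Slc15a3 rose by a log2 of 1.23 ± 0.21 (SE; 95% interval 0.76 to 1.704, adjusted p = 0.00462 by edgeR). It was called in 17 of 17 alternatives, with values from 0.77 to 1.40 and adjusted p up to 0.0495. On the TPM scale it was higher at the wound in 7 of 8 pairs. The library kit does not keep the strand, and Slc15a3 (chromosome 19, 10839727 to 10859362, plus strand, GRCm38) overlaps Tmem132a on the other strand, so reads of the overlap cannot be told apart. The same holds for Slc7a7 (chromosome 14, 54369442 to 54417780), which overlaps Oxa1l, and for Slc7a5 (chromosome 8, 121881150 to 121907694), which overlaps Gm20388.

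Like Slc1a5 and Slc15a3, the summed monocyte markers had more CPM at the wound in 8 of 8 pairs, and those of border-associated macrophages in 7 of 8 (median 830 against 334 CPM). Neutrophil markers were also higher in 8 of 8 (median 32.6 against 1.27 CPM) and those of T and NK cells in 7 of 8 (17.5 against 4.57 CPM). At day 1 the monocyte sum at the wound was 323 CPM in females and 198 in males, and it was highest at day 4 in females, 2492 CPM. Slc15a3 was at its highest at day 1, with 175 and 153 CPM, and Slc1a5 was highest in the day 4 female library, 47.5 CPM. The part of these cells in the rises of Slc1a5, Slc15a3 and Slc3a2 was not tested.

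Differences of the injury effect between days, between sexes and within a side were tested for all 8 genes. None of the 8 passed the test that the 4 day effects differ (adjusted p 0.675 to 0.965), nor did any other gene (0%). Before adjustment 0 of the 8 and 6.36% of all genes had a p under 0.05. None passed the test that the injury effect differs between females and males (adjusted p 0.874 to 1), where again 0% of all genes passed. Unadjusted, 0 of the 8 and 7.32% of all genes had a p under 0.05. The largest sex difference was that of Slc1a5, female minus male effect 0.79 ± 0.75 (SE; 95% interval -0.86 to 2.44). A smaller change of Slc3a2 or Slc15a3 at day 14 than at day 1 was therefore not shown.

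Within the non-injured libraries none of the 8 genes was called across days, where 0% of 24622 genes were, or between males and females, where 0.0284% were. Unadjusted, none of the 8 had a p under 0.05 in either test, against 1.43% and 7.12% of all genes. Within the wound libraries none was called across days, against 0.104% of 22040 genes. Slc7a5 and Slc7a6 came nearest, with unadjusted p of 0.00401 and 0.00525 by edgeR (adjusted p = 0.358 for the smaller), where 6.48% of all genes had a p under 0.05. Slc7a6 at the wound at day 14 was 0.126 times its day 1 level in females and 0.145 times in males. For Slc7a5 these ratios were 0.352 and 0.0953. The levels were lower at day 14 on the non-injured side too. There the ratios in females and males were 0.15 and 0.559 for Slc7a6, and 0.303 and 0.522 for Slc7a5.

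The authors' deposited tables compare the sides at each day, and per the labels 4 columns a side enter each, so that the near-identical columns count apart. In the authors' deposited table of day 1, Slc15a3 had a log2 change of 1.57 (adjusted p = 1.34e-07), Slc3a2 1.11 (adjusted p = 2.40e-06) and Slc1a5 2.12 (adjusted p = 0.0449). In the authors' deposited table of day 4, Slc15a3 had 1.52 (adjusted p = 3.44e-07) and Slc1a5 2.42 (adjusted p = 0.0142), while Slc3a2 had 0.48 (adjusted p = 0.0796). In the authors' deposited table of day 7, Slc7a5 had -2.05 (adjusted p = 0.000253) and Slc1a5 2.47 (adjusted p = 0.0141). Neither Slc15a3 (0.61, adjusted p = 0.0777) nor Slc3a2 (0.41, adjusted p = 0.127) passed in the authors' deposited table of day 7. Among all genes, 3408 had an adjusted p under 0.05 in the table of day 1, 3702 at day 4 and 4656 at day 7. None of the 8 had an adjusted p under 0.05 in the authors' deposited table of day 14, where 3879 genes did.

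Beyond the 8 genes, 36 other carriers of amino acids and peptides were listed, of which 35 were tested. Over the mean of the days 5 rose, 6 fell and 24 were not called, with a median log2 change of -0.13. Of all genes tested, 7.76% rose and 7.96% fell. The rises included the cystine carrier Slc7a11, another light chain of Slc3a2, by 1.99 ± 0.44 (SE; 49.1 against 8.89 CPM, adjusted p = 0.0159), the aromatic amino acid carrier Slc16a10 by 1.62 ± 0.24 (91.6 against 27.5 CPM, adjusted p = 0.0025) and the taurine carrier Slc6a6 by 1.10 ± 0.15 (366 against 174 CPM, adjusted p = 0.00194). Slc43a2, a leucine carrier that needs no heavy chain, rose by 0.69, and Pqlc2, a lysosomal exporter of cationic amino acids, by 0.90. The falls included Slc7a10 with a log2 change of -3.69 ± 0.58 (1.52 against 20.3 CPM, adjusted p = 0.00289) and the astrocyte glutamate carriers Slc1a2 with -1.76 ± 0.47 (adjusted p = 0.0336) and Slc1a3 with -1.74 ± 0.30 (adjusted p = 0.0052). Slc1a1, Slc6a17 and Slc7a14, known from neurons, fell as well. Beside these falls, the summed CPM of 10 neuronal markers was 23.9 to 424 at the wound and 116 to 8977 on the other side, less at the wound in 8 of 8 pairs. The sum of 9 astrocyte markers, which include Slc1a2 and Slc1a3, was lower in 5 of 8, and the part of either cell type in the falls was not tested. Slc15a4, the endosomal relative of Slc15a3, was not called (0.29 ± 0.21, adjusted p = 0.447), nor was Slc38a1, the relative of Slc38a2 (0.34 ± 0.19, adjusted p = 0.281). At day 4 Slc6a6 rose by 1.67 ± 0.31 (adjusted p = 0.0354), and Slc6a17 had a log2 change of -4.43 ± 0.71 (adjusted p = 0.0166). Slc6a17 was also called as lower at day 7 (-6.07 ± 0.96, adjusted p = 0.0369) and day 14 (-4.81 ± 0.70, adjusted p = 0.0388).

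**Figure D5:**
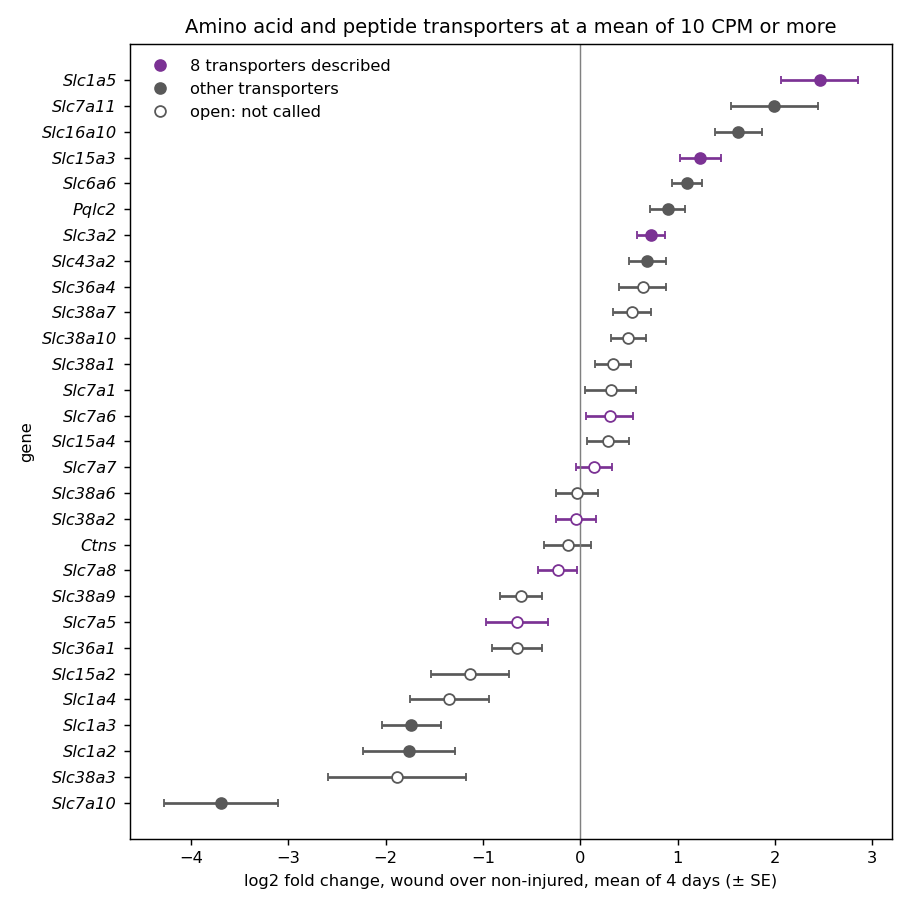
Mean log2 fold change over the 4 days, wound over non-injured, with SE bars, for the 29 amino acid and peptide carriers with a mean CPM of 10 or more. Purple points are the 8 transporters described and grey points other carriers; filled points were called and open points were not. Slc1a5 (2.46) lies at the top and Slc7a10 (-3.69) at the bottom.

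Other lists hold genes that respond to amino acid supply. Of 21 tested genes of the ATF4 response, 7 rose and 0 fell over the mean of the days, with a median log2 change of 0.69. Of all genes tested, 7.76% rose and 7.96% fell. Eif4ebp1, an inhibitor of translation initiation, rose by 1.95 ± 0.21 (SE; adjusted p = 0.000596), Psat1, an enzyme of serine synthesis, by 1.65 ± 0.36 (adjusted p = 0.0144) and Cebpb, a transcription factor, by 1.46 ± 0.42 (adjusted p = 0.0436). At day 1 the pseudokinase Trib3 rose by 5.50 ± 0.73 and the folate enzyme Mthfd2 by 2.32 ± 0.41. Atf4 itself was not called (-0.02 ± 0.19, adjusted p = 1). Of the 8 carriers, Slc3a2 and Slc1a5, both known ATF4 targets, rose, and Slc7a5 and Slc38a2, known targets too, were not called.

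Of 32 tested genes of amino acid sensing by mTORC1, 10 rose and 2 fell, with a median of 0.17, beside 7.76% and 7.96% of all genes. All 5 Lamtor genes, which encode the lysosomal scaffold Ragulator, were among the rises, with Lamtor5 at 1.09 ± 0.20 (SE; adjusted p = 0.00661) and Lamtor2 at 1.03 ± 0.23 (adjusted p = 0.0162). Fnip2, a partner of folliculin, rose by 1.64 ± 0.24 (adjusted p = 0.00236). Rptor, which encodes the mTORC1 subunit raptor, had a log2 change of -1.35 ± 0.20 (adjusted p = 0.00232), and Sesn1, of the sestrin family that senses leucine, of -0.64 ± 0.19 (adjusted p = 0.046), both called as falls. Of 10 tested genes of peptide sensing in endosomes and lysosomes, where Slc15a3 works, 1 rose, 5430427O19Rik by 1.00 ± 0.28 (adjusted p = 0.0413), and 0 fell. This 1 of 10 is near the share of all genes that rose.

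The genes whose pattern over the 8 pairs was most like each carrier were sought among the 9025 genes with a mean CPM of 10 or more, by the root-mean-square difference of their pair log2 ratios. A constant was added to each CPM before these ratios were taken. It shrinks ratios at low levels, such as that of Slc1a5 in the day 14 female pair. For Slc3a2 the nearest genes were Ecpas (0.145) and Erp44 (0.182), where the median gene was at 1.01. Slc15a3 had Eif4a1 (0.291) and Rbm3 (0.342) beside a median of 1.44, and Slc1a5 had Uap1l1 (0.393) and Adssl1 (0.490) beside 2.25. Slc7a8 had Ampd3 (0.142) and Tra2a (0.314), Slc7a7 had Ifi27 (0.172) and Topors (0.184), and Slc38a2 had Tmem68 (0.189) and Stxbp3 (0.190). Slc7a6 had Nob1 (0.367) and Prmt9 (0.380), and Ttll4 (0.499) was near Slc7a5. No member was among these neighbours of another. The nearest other member was Slc15a3 for Slc3a2 (0.654) and Slc7a7 for Slc38a2 (0.409).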

How the data were processed

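The SMART-Seq v4 and Nextera XT kits, per the labels' protocols, lose the strand. Salmon 1.0.0 and DESeq2 1.26.0 were used, per the submitters' processing notes; for build and annotation the sources used here give nothing. The authors deposited expected counts per gene, TPM values, and tables with a log2 fold change and an adjusted p-value per day. The 2 count columns of each day, sex and side were summed and rounded, giving 16 libraries. In R 4.3.3, edgeR 4.0.16 (quasi-likelihood, TMM factors, filterByExpr at a minimum count of 10) fitted a mean for each of 8 day-by-sex pairs and an injury effect for each of 4 days, leaving 4 residual degrees of freedom. p-values were Benjamini-Hochberg adjusted over 28597 genes. CPM uses TMM-scaled totals. Symbols are from the authors' deposited tables. Gene coordinates are from GENCODE M21 (GRCm38), which held 54487 of 55385 IDs. Same-numbered columns of the sides correlated between -0.0189 and 0.0663 in their deviations, so the numbers were not taken to pair the samples. Alternatives were median-ratio factors, DESeq2 1.42.0, no filter, and limma 3.58.1 on log2(TPM + 1) at a mean TPM of at least 1. Others took 32 separate columns with and without a block, or no sex pairs. The rest left out each pair, or all columns of each replicate number, in turn. The fit was also run on simulated data, and the outcome is not reported here. Besides the 8 members, named genes are up to 3 called genes of largest fold per list, direction and comparison at a mean of at least 10 CPM, and the 2 genes nearest to each member; some results for single genes are not reported here. Slc43a2, Pqlc2, Slc15a4, Slc38a1, Slc1a1, Slc6a17, Slc7a14 and Atf4 were added after their values were seen, as were the heavy to light chain ratio and the spread of Slc7a8. Members and lists were chosen with earlier results of these data known.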

Additional observations from a re-analysis of the deposited data

Results flagged for a closer look

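Among the 8 wound or 8 non-injured libraries, 3 values lay far from the nearest other one; chance alone marks about 1 in 20 such groups, and 16 were looked at. Slc3a2 reached 1991 CPM in the day 1 female wound library, with a gap to the next of 0.584 of the whole range, and the mean at the wound was 961 CPM with it and 814 without it. Slc7a5 reached 48.2 CPM in the day 1 male wound library (gap 0.618 of the range). It was the pair in which Slc7a5 was higher at the wound. Slc38a2 reached 215 CPM in the non-injured day 14 female library (gap 0.592 of the range), where Slc1a5 had its 2 counts.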

How the results depend on the processing

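The calls over the mean of the days kept their direction for Slc1a5, Slc15a3 and Slc3a2 in all 17 alternatives; the call of Slc3a2 was lost in the 3 named above. No call was reversed. The number of the 8 genes called as higher was 0 at each single day in the main fit. DESeq2 gave 2 at day 1, 2 at day 4 and 1 at day 14. Taking the 32 columns as separate samples with the replicate block gave 4 at day 1, 3 at day 4, 3 at day 7 and 1 at day 14, with 1 lower at day 7, 1 at day 14 and 2 over the mean of the days, and 4 that differed between days. Of all genes that fit called 15.1%, 15.2%, 16.1% and 16.7% as higher at the 4 days, 32.7%, 20.3% and 34.1% as lower at day 7, day 14 and over the mean, and 39.9% as differing between days. Without the block the 8 genes gave 4, 4, 3 and 1 higher, 1, 1 and 2 lower, and 6 that differed between days, beside 21.2%, 19.2%, 20.5% and 23.3%, then 41.6%, 27.6% and 40.1%, and 63.6% of all genes. Such fits take the near-identical columns for independent samples, and the replicate numbers give no sign of pairing. limma on TPM called 2 as lower over the mean of the days, Slc7a5 and Slc7a8, where it called 24.8% of all genes as lower, a share near that of the 8; both 32-column fits called these 2 as well. Leaving out a pair, or all columns of a replicate number, gave 0 to 2 higher at day 1. The 2 came without the day 4 female pair, where 1.2% of all genes rose. With the day 4 pairs all kept, it gave 0 to 1 higher at day 4. The 1 came without the day 14 male pair, where 1.34% of all genes rose. Over the mean of the days it gave 2 to 3 higher, where 2.23% to 8.46% of all genes rose. It gave 0 higher at days 7 and 14, 0 lower in any comparison and 0 that differed between days. The mean change of Slc7a7 kept its sign in 14 of 17 alternatives and that of Slc38a2 in 15. With 2 pairs a day, the change of Slc1a5 at day 4 (log2 2.94 ± 0.77, SE) did not pass. A smaller change with a smaller SE did, that of Slc6a6 at day 4 (1.67 ± 0.31). The cause of these shifts was not tested.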

Other observations

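Enzymes that use the amino acids these carriers move were described by a further list. Of 15 tested genes, 5 rose, 1 fell and 9 were not called over the mean of the days, with a median log2 change of 0.46. Of all genes tested, 7.76% rose and 7.96% fell. Gclm, the modifier subunit of glutathione synthesis, rose by 1.86 ± 0.26 (SE; 77.9 against 15.7 CPM, edgeR adjusted p = 0.00205). Bcat2, the mitochondrial branched-chain aminotransferase, rose by 1.51 ± 0.35 (54.0 against 21.1 CPM, adjusted p = 0.0186), and Got1, the cytosolic aspartate aminotransferase, by 1.04 ± 0.29 (77.0 against 41.5 CPM, adjusted p = 0.0404). Glul, glutamine synthetase, had a log2 change of -1.01 ± 0.20 (519 against 1031 CPM, adjusted p = 0.00945), a fall beside the rise of the glutamine carrier Slc1a5. Glul is also known as an astrocyte gene, and the part of astrocyte RNA in its fall was not tested.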
